A study of Mus musculus with 27 samples.

Results

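Mature microRNAs of mouse embryonic stem (ES) cells that lack Jarid2 were compared with those of cells that lack Eed. Of the 2035 mature microRNA loci listed in both genotypes, the 1073 with at least 10 reads in 1 of the genotypes were kept, and they carry 958 mature names. Jarid2-/- and Eed-/- cells were set side by side here without reference to wild-type cells, and wild-type and Ezh2-/- levels are given only to place a value. All 4 genotypes are CJ7 mouse ES cells grown in serum with LIF, the cytokine that holds ES cells undifferentiated, with no treatment. The labels list 27 samples, of which 7 are small RNA samples: 1 for Jarid2-/- and 2 for each of the other genotypes. They do not say which deletion each line carries, nor whether a line is 1 clone, and the messenger RNA of Jarid2 and Eed, which would check the labels, was not analysed here. Each genotype has 1 deposited column of counts, and no source says whether a column holds 1 sample or a pool. Every difference below is therefore a ratio between 2 columns with no replicate check and no p-value. Intervals cover counting error only, and reads made by PCR are not independent molecules.

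Polycomb repressive complex 2 (PRC2) adds methyl groups to histone H3 at lysine 27 and helps keep developmental genes silent. Eed is a core subunit that reads the finished mark and without which the enzyme Ezh2, or its relative Ezh1, does not work. Jarid2, once called Jumonji, is an accessory subunit that helps bring PRC2 to its targets. A microRNA hairpin is cut into a 5p and a 3p strand, usually 1 of them is loaded into the silencing complex, and bases 2 to 8 of that strand, the seed, choose its messenger RNA targets.

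The microRNAs that differed most, or that made up most of the reads, are printed here from the deposited tables, 5′ to 3′ with the seed in capitals, so that shared seeds and near-identical relatives can be seen. The first set was lower in Jarid2-/- than in Eed-/- cells. It opens with 2 seed pairs encoded within Hox clusters, followed by 6 microRNAs that share no seed.
miR-10a-5p: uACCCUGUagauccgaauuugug
miR-10b-5p: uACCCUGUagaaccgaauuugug
miR-196a-5p: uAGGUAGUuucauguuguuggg
miR-196b-5p: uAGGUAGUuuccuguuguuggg
miR-124-3p: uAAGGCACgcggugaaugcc
miR-22-3p: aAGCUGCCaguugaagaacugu
miR-31-5p: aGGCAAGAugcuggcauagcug
miR-136-5p: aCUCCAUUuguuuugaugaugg
miR-337-3p: uUCAGCUCcuauaugaugccu
miR-409-3p: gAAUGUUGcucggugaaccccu

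Counted from 1 at the 5′ end, miR-10a-5p and miR-10b-5p differ by U12A, and miR-196a-5p and miR-196b-5p by A12C. The second set holds members of the miR-17 family, which share 1 seed whether they come from chromosome 14 (miR-17), the X chromosome (miR-20b and miR-106a) or chromosome 5 (miR-93).
miR-17-5p: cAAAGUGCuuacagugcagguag
miR-20b-5p: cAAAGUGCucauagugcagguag
miR-106a-5p: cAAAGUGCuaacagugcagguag
miR-93-5p: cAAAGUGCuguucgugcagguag

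From miR-93-5p to miR-20b-5p the differences are G10C, U11A and C13A. The third set is the pair of most abundant ES cell microRNAs, which come from 1 cluster with different seeds, and the strands of miR-142 with 2 let-7 members, which were among the highest ratios.
miR-293-3p: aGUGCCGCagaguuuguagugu
miR-294-3p: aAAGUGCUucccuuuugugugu
miR-142-5p: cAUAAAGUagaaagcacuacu
miR-142-3p: uGUAGUGUuuccuacuuuaugga
let-7d-5p: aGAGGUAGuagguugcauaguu
let-7g-5p: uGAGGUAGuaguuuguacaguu

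The columns differed in depth. The Jarid2-/- column held 8485806 microRNA counts over 1224 loci and the Eed-/- column 42293019 over 1589, a ratio of 4.98. Counts were scaled to counts-per-million (CPM) of all microRNA counts in the column, so that a limit of 3 counts corresponds to 0.354 CPM in Jarid2-/- and 0.0709 CPM in Eed-/-. Ratios are log2 of CPM plus 1 in Jarid2-/- over the same in Eed-/- cells, which understates the differences of low loci, and a locus was called at a ratio of at least 2-fold. ES cell microRNAs of the miR-290 and miR-302 clusters summed to 394658 CPM in Jarid2-/- and 459992 in Eed-/- cells, against 405152 in wild-type and 464646 in Ezh2-/-, so each column carried the microRNAs that define the labelled cell type.

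Of the 1073 loci, 280 (26.1%) were called, 77 higher in Jarid2-/- (7.18%) and 203 lower (18.9%). The ratios ran from -6.59 to 3.55 with a median of -0.21 and quartiles of -0.76 and 0.37. The columns' depths bear on these totals. Of the tested loci, 306 reached 10 counts only in Eed-/-, of which 44 were called lower and 0 higher, 7 reached it only in Jarid2-/-, and 59 had no Jarid2-/- count. The 760 loci with at least 10 counts in both columns had 71 called higher and 159 lower. Among the 298 loci with a mean of at least 100 CPM, 31 were higher and 51 lower, with a median of -0.06. With the Eed-/- counts thinned to the Jarid2-/- total, 80 of 846 loci were higher and 198 lower. At the filter itself, the 19 loci whose larger count was 10 had ratios from -0.31 to 0.25, and the 29 left out at 9 counts from -0.28 to 0.39.

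**Figure D1:**
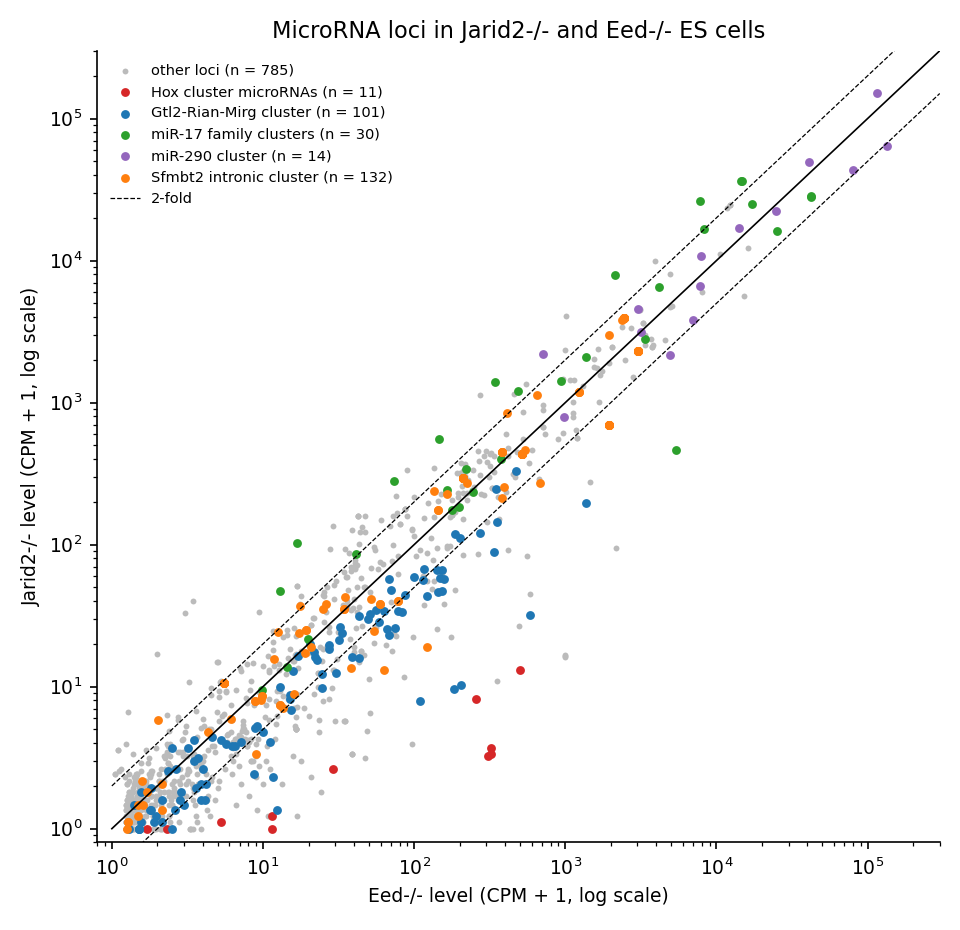
Each point is 1 tested locus, with its level in Eed-/- (x axis) and Jarid2-/- cells (y axis) as CPM + 1 on log scales, coloured by 5 microRNA groups, and dashed lines marking 2-fold. Hox cluster microRNAs lie far below the diagonal and the Gtl2-Rian-Mirg cluster mostly below it (median -0.79), while many miR-17 family loci lie above it (median 0.61).

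Wild-type levels placed the called loci. For the 77 higher loci, the wild-type level lay between the 2 mutants in 41, below both in 26 and above both in 10. For the 203 lower loci it lay between them in 109, above both in 74 and below both in 20. These are levels of another column beside the same pair, not a separate comparison.

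The widest gap belonged to microRNAs encoded inside the Hox clusters, whose homeotic genes set positional identity along the embryo and are well-known targets of PRC2. Of 11 tested loci, 10 were called lower in Jarid2-/- (90.9%, beside 18.9% of all loci) and 0 higher (7.18% of all loci). The median ratio was -3.52 against -0.21 over all loci. Of the 11, 5 passed the filter only through Eed-/-. The 6 with at least 10 counts in both columns were all called lower, beside 159 of 760 such loci in all. The summed level of the Hox cluster microRNAs was 28.5 CPM in Jarid2-/- and 1767 CPM in Eed-/- cells, 62.0-fold lower (95% interval 54.6 to 70.6). It was 211 CPM in wild-type and 219 in Ezh2-/-. The high value was that of Eed-/- cells, and Jarid2-/- cells were the lowest of the 4.

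miR-196b-5p, between Hox genes at chr6:52180128-52180149 (mm9, minus strand), stood at 2.24 CPM in Jarid2-/-, 308 in Eed-/-, 14.5 in wild-type and 17.3 in Ezh2-/- cells. Its count was 19 in Jarid2-/- and 13047 in Eed-/-, so it was 138-fold lower (88.2 to 229). miR-196a-5p, counted at both chr11:96126501-96126522 and chr15:102803796-102803817, stood at 2.71 CPM, 323, 81.0 and 80.4 in the same order at its chromosome 15 locus. The near-identical pair thus shared a low value in Jarid2-/- and a high one in Eed-/-, but differed in wild-type and Ezh2-/- cells, where miR-196a-5p was the higher one. In bulk RNA, fewer cells with a microRNA and less of it per cell cannot be told apart.

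miR-10b-5p, at chr2:74564131-74564153 in the Hoxd cluster, stood at 12.02 CPM in Jarid2-/-, 503 in Eed-/-, 15.2 in wild-type and 17.9 in Ezh2-/- cells, 41.9-fold lower (34.5 to 51.4) in Jarid2-/-. miR-10a-5p, at chr11:96178500-96178522 in the Hoxb cluster, was at 7.19, 256, 8.74 and 8.20 CPM, 35.6-fold lower (27.7 to 46.5). For both miR-10 genes 3 columns lay close together and the Eed-/- column stood alone above them. The third Hox microRNA, miR-615, followed at a low level, with miR-615-3p at 0.236 CPM in Jarid2-/- (2 counts) and 10.5 in Eed-/- cells. The 11th locus, miR-615-5p, had no Jarid2-/- count and 0.709 CPM in Eed-/-.

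**Figure D2:**
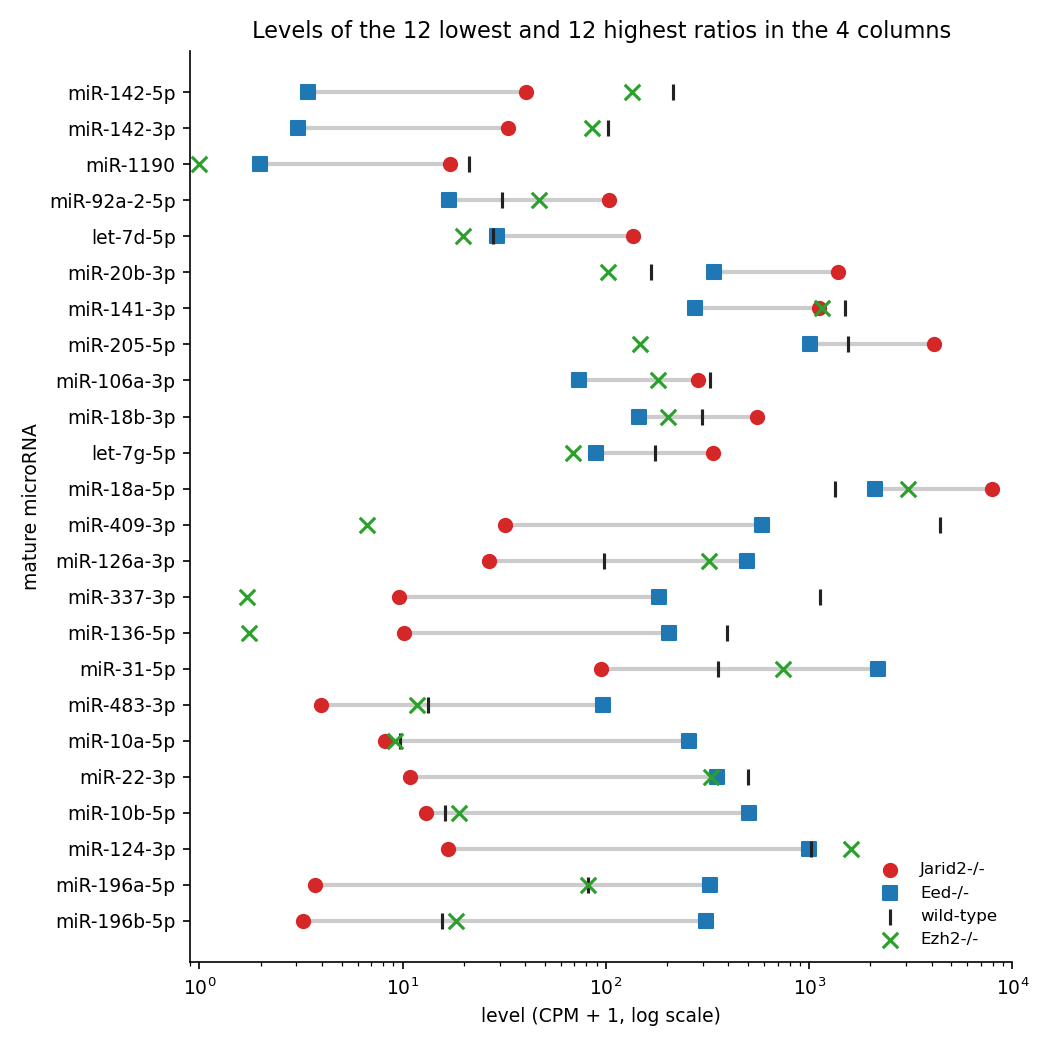
Levels (CPM + 1, log scale) of the 12 microRNAs with the lowest and the 12 with the highest ratio in Jarid2-/- (circles), Eed-/- (squares), wild-type (bars) and Ezh2-/- cells (crosses). The miR-10 pair and miR-196b-5p have the Eed-/- square alone on the right, whereas for miR-124-3p and miR-22-3p the Jarid2-/- circle is alone on the left.

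The imprinted Gtl2-Rian-Mirg cluster, named in the series title, carries many microRNAs expressed from the maternal chromosome. Of its 115 loci 101 were tested, and 38 (37.6%) were called lower in Jarid2-/- and 0 higher. A ratio below 0 was found in 94 of the 101, beside 658 of the 1073 loci in all. The median was -0.79, beside -0.21 over all loci, of which 18.9% were called lower and 7.18% higher. Of the tested loci 25 passed the filter only through Eed-/-. Among the 76 with at least 10 counts in both columns 32 were called lower, beside 159 of 760 such loci in all. The summed level was 2780 CPM in Jarid2-/- and 7474 in Eed-/- cells, 2.69-fold lower (2.65 to 2.72), beside 48584 in wild-type and 48.4 in Ezh2-/-. Both mutants lay between wild-type and Ezh2-/- cells, Jarid2-/- the lower of the pair.

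Split by position, which was done after the values were seen, the loci of the Gtl2 and anti-Rtl1 part (chr12:110801920-110833597, 24 tested) summed to 653 CPM in Jarid2-/- and 1614 in Eed-/- cells, with 10 called lower. In the Mirg part (chr12:110947275-110986159, 73 tested) the sums were 2057 and 5777 CPM, with 28 called lower. The 4 tested loci of the Rian part (chr12:110849731-110856536) summed to 69.2 and 83.1 CPM with none called, and their ratios ran from -0.39 to 0.25. Both large parts thus differed by 2.47-fold and 2.81-fold, and the few loci between them by 1.20-fold.

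Within the cluster the ratios ran from -4.32 to 0.56. miR-136-5p, from the strand opposite to Rtl1, was at 9.19 CPM in Jarid2-/-, 203 in Eed-/-, 394 in wild-type and 0.748 in Ezh2-/- cells, 22.1-fold lower (17.7 to 27.9). In the same part, miR-337-3p was at 8.60, 181, 1132 and 0.717 CPM, 21.1-fold lower (16.7 to 26.9). Far from both, in Mirg, miR-409-3p was at 30.9, 583, 4383 and 5.64 CPM, 18.9-fold lower (16.7 to 21.4). These 3 stood well away from the bulk of the cluster.

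Among the 8 most abundant members by the mean CPM of both columns, miR-409-3p had the widest ratio and the other 7 differed less. miR-541-5p was at 196 CPM in Jarid2-/- and 1374 in Eed-/- cells, 6.99-fold lower (6.66 to 7.35), with 850 in wild-type, so that the Eed-/- level was above that of wild-type. miR-494-3p was at 87.3 and 339 CPM, miR-154-3p at 142 and 351, and miR-376c-3p at 119 and 272, all called lower. miR-665-3p at 328 and 468 CPM, miR-376b-3p at 244 and 345 and miR-379-5p at 110 and 201 were below 2-fold. In wild-type cells these 6 stood between 1687 and 3827 CPM, and in Ezh2-/- between 1.03 and 3.21.

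**Figure D3:**
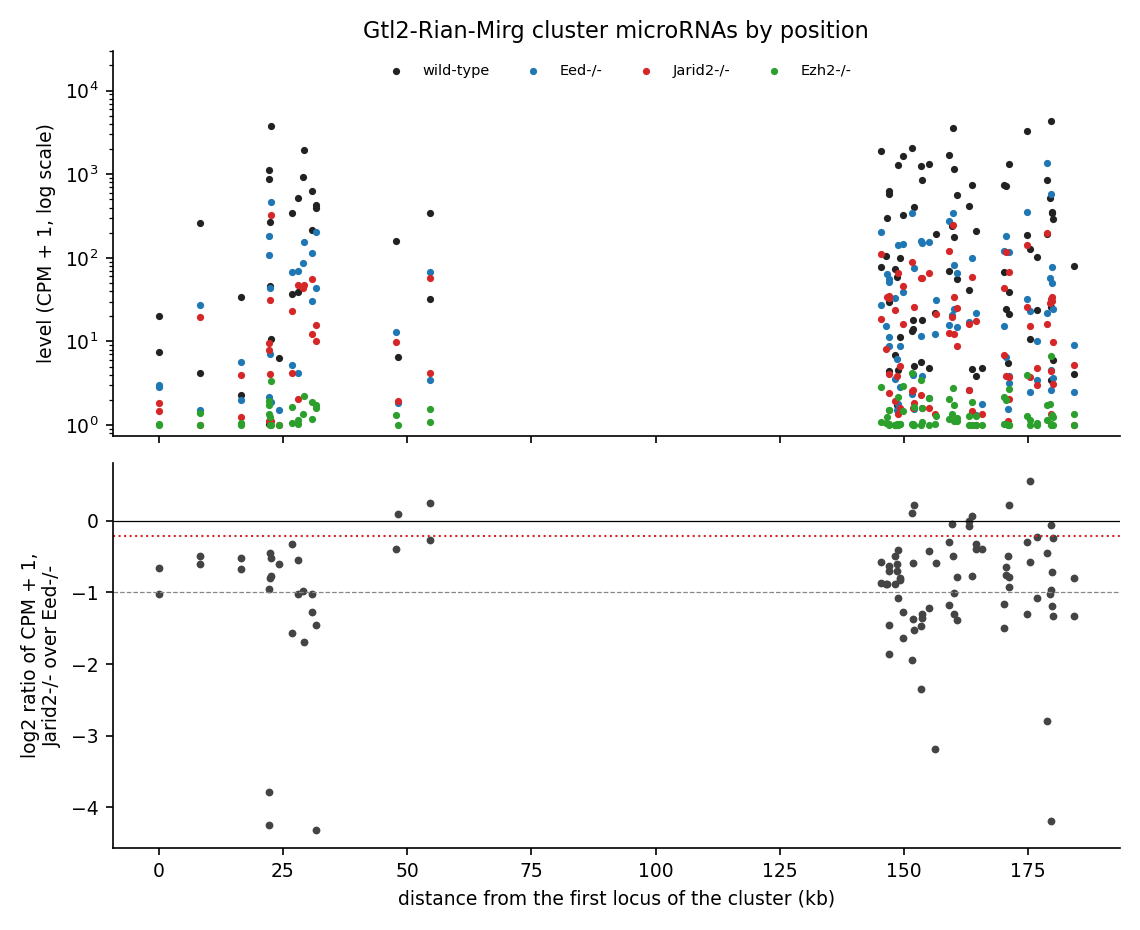
Tested loci of the Gtl2-Rian-Mirg cluster by distance in kb from its first locus, with levels in the 4 columns above (CPM + 1, log scale) and the log2 ratio of Jarid2-/- over Eed-/- below. Solid, dashed and dotted lines mark 0, the 2-fold call and the median of all loci, -0.21, and most loci lie below the dotted line at both ends of the cluster.

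Other imprinted microRNAs split by locus. miR-483-3p, in an intron of the growth factor gene Igf2, was at 2.95 CPM in Jarid2-/-, 95.9 in Eed-/-, 12.3 in wild-type and 10.7 in Ezh2-/- cells, 32.6-fold lower (22.02 to 50.4). Both strands of miR-675, which is processed from the maternally expressed H19 RNA next to Igf2, were lower too, with miR-675-3p at 1.30 CPM and 19.7 CPM in Jarid2-/- and Eed-/-. Of the 10 tested loci 4 were called lower (40%, beside 18.9% of all loci) and 0 higher (7.18% of all loci). The 4 were the strands of miR-483 and miR-675, and 2 of them passed the filter only through Eed-/-. Of the 8 with at least 10 counts in both columns, 2 were called lower, near the share of such loci in all (159 of 760). The other 6 of the 10 tested imprinted loci, from miR-296, miR-298 and miR-335, were below 2-fold, for example miR-298-5p at 1307 and 1309 CPM and miR-335-5p at 356 and 318 CPM.

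In the miR-290 cluster, which makes up much of the microRNA pool of ES cells, the summed level was 381873 CPM in Jarid2-/- and 444418 in Eed-/- cells, 1.16-fold lower (1.16 to 1.17). Of 14 tested loci 2 were called lower (14.3%) and 1 higher (7.14%), near the shares over all loci. miR-293-3p was at 64340 CPM in Jarid2-/-, 133783 in Eed-/-, 134932 in wild-type and 108603 in Ezh2-/- cells, lowest in Jarid2-/- (2.08-fold lower than in Eed-/-). miR-294-3p, the most abundant microRNA of the Jarid2-/- column and second to miR-293-3p in Eed-/-, was at 151279, 115428, 152826 and 164809 CPM, lowest in Eed-/-. Also lower was miR-291b-5p, at 2174 and 4931 CPM, and higher was the strand miR-295-5p, at 2192 and 706 CPM in Jarid2-/- and Eed-/-.

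Summed by seed, the shares went both ways. The seed AAGUGCU of miR-294-3p, miR-295-3p, miR-291a-3p and 3 miR-302 members took 18.98% of all microRNA counts in Jarid2-/- and 15.1% in Eed-/- cells, while GUGCCGC of miR-293-3p took 6.43% and 13.4%. The seed AAGUGCC, mainly that of miR-292-3p, took 5.12% and 10.1%. These shares count a repeated name at each of its loci. With every name counted once, the 3 seeds took 23.3% and 18.3%, 7.90% and 16.2%, and 5.52% and 10.1%. Over the 10 tested loci of the miR-302 cluster, a related family that marks primed pluripotent cells, only miR-302c-5p was called, at 157 CPM in Jarid2-/- and 71.5 in Eed-/-, and the median was -0.15.

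The miR-17 family clusters, which promote proliferation, were higher in Jarid2-/- cells in sum. Of 30 tested loci 12 were called higher and 1 lower, where 7.18% and 18.9% of all loci were, with a median of 0.61. The summed level was 238980 CPM in Jarid2-/- and 192058 in Eed-/- cells, 1.24-fold higher (1.24 to 1.25). With 223834 CPM in wild-type and 296248 in Ezh2-/-, the Eed-/- sum was the lowest of the 4. These sums, and the fold, count miR-19b-3p and miR-92a-3p at each of 2 loci. At its chromosome 14 locus, miR-19b-3p was at 42330 CPM in Eed-/- and 62235 in wild-type. miR-92a-3p was at 14729 and 24771 CPM there, so the repeated loci make up most of the gap between the Eed-/- and wild-type sums. With each name counted once, those 2 sums would lie close together.

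The difference was uneven over the 3 paralogous clusters, a split made after the values were seen. In the X-linked miR-106a-363 cluster (chrX:50094874-50095740) 10 of 12 loci were called higher, with a median of 1.54. In the miR-17-92 cluster on chromosome 14 (chr14:115442906-115443718) 2 of 12 were, with a median of 0.30, and in the miR-106b-25 cluster on chromosome 5 (chr5:138606560-138607035) 0 of 6 were higher and 1 was lower. miR-20b-5p of the X-linked cluster was at 26222 CPM in Jarid2-/-, 7748 in Eed-/-, 7750 in wild-type and 6571 in Ezh2-/- cells, so the Jarid2-/- column alone was high.

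The other loci of this cluster varied. miR-19b-3p (ratio -0.58) and miR-18b-5p (0.14) were the 2 loci not called. miR-20b-3p was at 1391 CPM in Jarid2-/-, 339 in Eed-/-, 166 in wild-type and 101 in Ezh2-/- cells, 4.10-fold higher (4.00 to 4.21) than in Eed-/-. miR-106a-3p at 282, 72.7, 323 and 180 CPM, and miR-18b-3p at 550, 145, 295 and 201 CPM, were 3.87-fold (3.67 to 4.09) and 3.80-fold (3.66 to 3.95) higher. miR-92a-2-5p had the highest ratio of the group, 102 CPM against 15.8. For miR-106a-3p, unlike miR-20b-3p, the wild-type level was as high as that of Jarid2-/-.

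From the chromosome 14 cluster, miR-18a-5p was at 7901 CPM in Jarid2-/-, 2115 in Eed-/-, 1338 in wild-type and 3053 in Ezh2-/- cells, 3.74-fold higher (3.70 to 3.77). Its transcript mate miR-17-5p was at 24854 and 17242 CPM in Jarid2-/- and Eed-/- (ratio 0.53), and miR-19b-3p, which is also counted on the X chromosome, was lower in Jarid2-/- at 28297 and 42330 CPM (ratio -0.58). So microRNAs cut from 1 precursor ran in opposite directions. miR-92a-3p, likewise counted on both chromosomes, was at 36102 and 14729 CPM, 2.45-fold higher (2.44 to 2.46).

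miR-93-5p went the other way within its seed family: it was at 466 CPM in Jarid2-/-, 5369 in Eed-/-, 178 in wild-type and 148 in Ezh2-/- cells, 11.5-fold lower (11.2 to 11.9). The Eed-/- column was the one that stood apart. Its own 3p strand was at 342 and 221 CPM, and its cluster mate miR-106b-5p at 2081 and 1361 CPM in Jarid2-/- and Eed-/-. As the printed sequences show, miR-93-5p and miR-20b-5p differ at 3 bases, and the authors' rule for assigning reads to such relatives is not given in the sources used here. Their shared seed AAAGUGC took 7.66% of the Jarid2-/- and 4.41% of the Eed-/- counts in sum.

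A second X-linked cluster, that of miR-322, miR-503 and miR-450, whose members promote cell cycle exit and muscle differentiation, was lower in Jarid2-/- cells. Of 13 tested loci 11 were called lower (84.6%, beside 18.9% of all loci) and 0 higher (7.18% of all loci), with a median of -1.63. Of the 13, 2 passed the filter only through Eed-/-. Among the 11 with at least 10 counts in both columns 10 were called lower, beside 159 of 760 such loci in all. The sums were 385 CPM in Jarid2-/-, 1887 in Eed-/-, 1326 in wild-type and 932 in Ezh2-/-, 4.90-fold lower (4.73 to 5.07). miR-322-5p was at 276 and 1459 CPM, miR-351-5p at 24.6 and 140, and miR-503-5p at 21.4 and 97.9 CPM. Unlike in the miR-17-92 cluster, all 13 ratios had the same sign.

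The X-linked germ cell cluster, normally expressed in testis, was lower as well, at low levels. Of 33 tested loci 15 were called lower (45.5%, beside 18.9% of all loci) and 0 higher (7.18% of all loci). Since 22 of the 33 reached 10 counts only in the deeper Eed-/- column, the filter itself favours ratios below 0 here. The 11 with at least 10 counts in both columns were all called lower, beside 159 of 760 such loci in all. The sums were 47.6 CPM in Jarid2-/- and 171 in Eed-/- cells, 3.59-fold lower (3.25 to 3.98), with 83.9 in wild-type and 35.4 in Ezh2-/-. miR-880-3p was at 3.77 and 22.4 CPM, and miR-465c-3p, whose sequence is shared with other miR-465 copies, at 4.01 and 15.4 CPM. Over the whole X chromosome 36 of 115 tested loci were lower and 15 higher, so the chromosome held both kinds.

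The Sfmbt2 intronic cluster, a large rodent-specific array of repeated hairpins, was nearly even in sum, at 113340 CPM in Jarid2-/- and 115849 in Eed-/- cells. Of 132 tested loci 3 were called higher (2.27%) and 17 lower (12.9%), both below the shares over all loci, with a median of -0.13. Its sequence families diverged: miR-466 loci summed to 55775 and 34417 CPM, miR-467 loci to 12214 and 24739 CPM, and miR-669 loci to 43484 and 55105 CPM. miR-466b-3p was at 3971 and 2446 CPM, and the same counts stood at the loci of miR-466c-3p and miR-466e-3p. These sums count a repeated sequence once per locus, so they weight names with many copies.

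**Figure D4:**
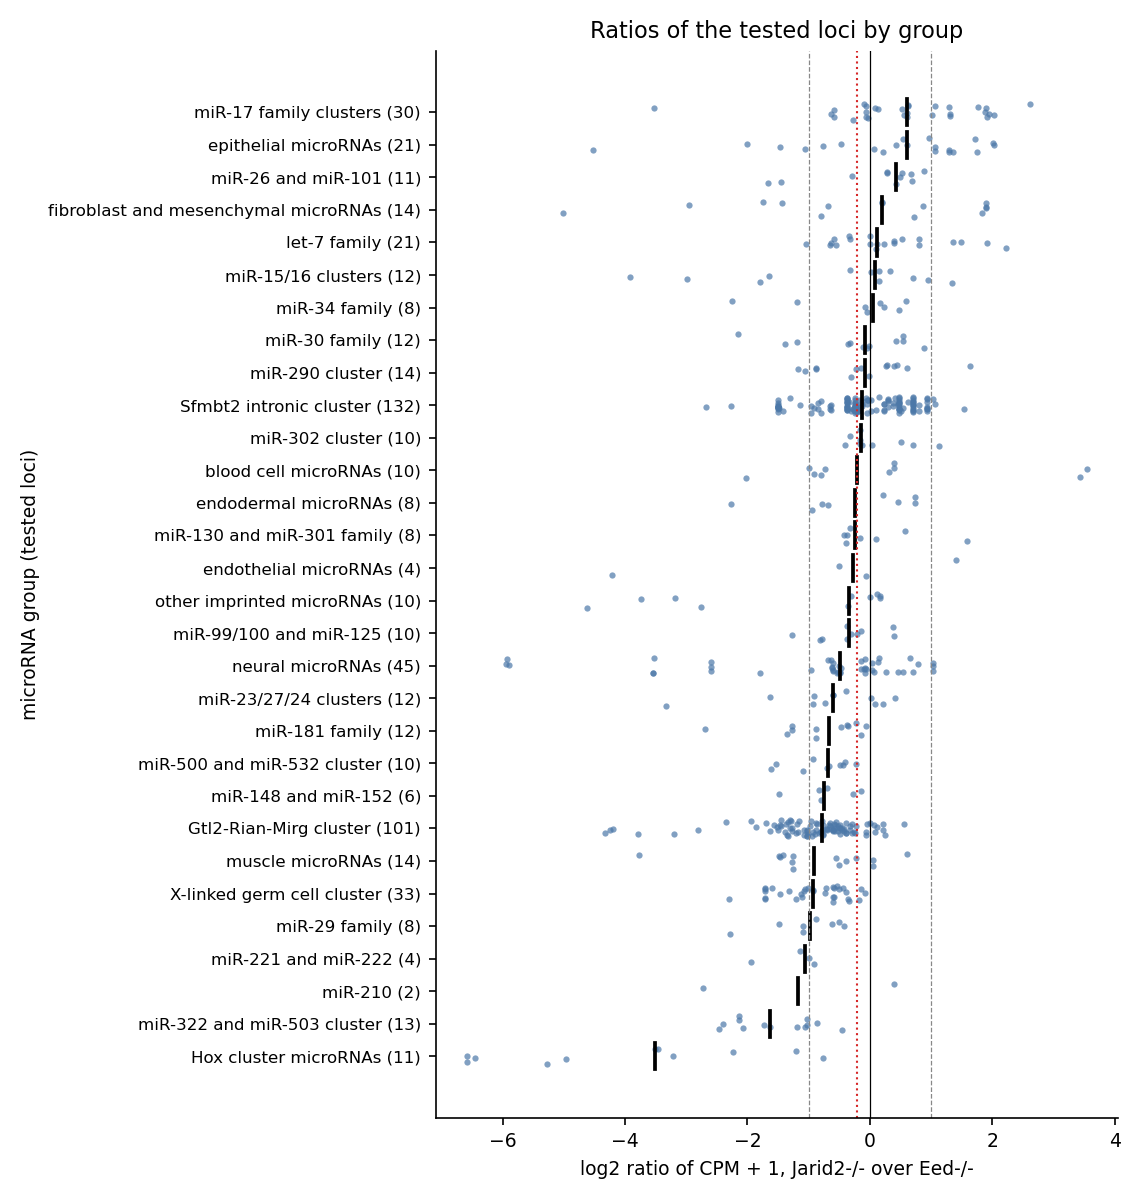
Log2 ratios (Jarid2-/- over Eed-/-, CPM + 1) of the tested loci in each of 30 microRNA groups, 1 point per locus with black bars at the group medians, ordered by median. Dashed lines mark 2-fold and the dotted line the median of all loci (-0.21), and the Hox, miR-322 and miR-503, and miR-17 family groups lie farthest from it among groups of at least 10 loci.

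Let-7 microRNAs, which promote differentiation and are held low in ES cells by Lin28, were low in both mutants, with sums of 1371 CPM in Jarid2-/-, 678 in Eed-/-, 469 in wild-type and 284 in Ezh2-/- cells. Of 21 tested loci 4 were called higher (19.05%) and 1 lower (4.76%), beside 7.18% and 18.9% of all loci. The 4 higher loci carry 3 names, since let-7f-5p is counted at 2 loci. The sums also count a repeated name at each of its loci. let-7d-5p was at 134 CPM in Jarid2-/-, 28.1 in Eed-/-, 26.9 in wild-type and 18.8 in Ezh2-/-, 4.78-fold higher (4.40 to 5.19). let-7g-5p was at 335, 88.1, 173 and 67.9 CPM, 3.80-fold higher (3.62 to 3.99), while let-7a-5p at 127 and 95.9 CPM and let-7c-5p at 139 and 79.4 CPM stayed under 2-fold. Members with 1 seed thus differed in their ratios.

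Epithelial microRNAs were mixed, with 9 of 21 tested loci called higher (42.9%) and 4 lower (19.05%, near the 18.9% of all loci), and a median of 0.60. miR-205-5p, a microRNA of stratified epithelium, was at 4088 CPM in Jarid2-/-, 1011 in Eed-/-, 1554 in wild-type and 147 in Ezh2-/- cells, 4.05-fold higher (3.99 to 4.10). miR-141-3p, of the miR-200 family that restrains the epithelial to mesenchymal transition, was at 1122, 273, 1506 and 1158 CPM, 4.11-fold higher (4.00 to 4.22). The family itself was split, with 3 of its 9 tested loci called higher and 3 lower, beside 7.18% and 18.9% of all loci. Among the lower ones, miR-200c-3p was at 16.7 and 70.2 CPM and miR-200b-3p at 144 and 302 CPM in Jarid2-/- and Eed-/-. The cluster of miR-183, miR-96 and miR-182 had 4 of 6 loci called higher, with miR-183-5p at 9997 and 3896 CPM and miR-182-5p at 11073 and 10570 CPM. The lowest ratio of the group was that of miR-31-5p, at 93.7 CPM in Jarid2-/-, 2169 in Eed-/-, 355 in wild-type and 738 in Ezh2-/-. It was 23.1-fold lower (21.6 to 24.9).

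Among 45 tested neural loci 10 were called lower (22.2%) and 3 higher (6.67%), near the 18.9% and 7.18% of all loci. The 10 lower loci carry 4 names, since miR-124-3p, miR-9-5p and miR-9-3p are each counted at 3 loci. miR-124-3p, the most abundant microRNA of neurons, was at 15.7 CPM in Jarid2-/-, 993 in Eed-/-, 1014 in wild-type and 1599 in Ezh2-/- cells, 63.4-fold lower (53.4 to 75.7), so the Jarid2-/- column alone was low. Its 5p strand was at 176 and 85.9 CPM in Jarid2-/- and Eed-/-, the opposite order, and the 3 higher loci were the 3 copies of that strand. Also lower were miR-9-5p, a microRNA of neural progenitors, at 2.36 and 38.0 CPM, and miR-9-3p at 4.71 and 33.7 CPM. miR-7a-5p at 4805 and 5072 CPM and miR-218-5p at 675 and 710 CPM were close.

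Muscle microRNAs were scarce, with sums of 10.4 CPM in Jarid2-/- and 47.7 in Eed-/- cells. Of 14 tested loci 10 passed the filter only through Eed-/-, so the 7 called lower, of which 5 are among these 10, and the 0 called higher are given as a description only. miR-206-3p, of skeletal muscle, had 2 Jarid2-/- counts (0.236 CPM) and 15.9 CPM in Eed-/-, a 67.3-fold lower value whose interval ran from 18.6 to 557. miR-1a-3p was at 2.00 and 7.38 CPM. In wild-type cells miR-206-3p was at 0.757 CPM, so that the Eed-/- level was again the high one.

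Markers of fibroblasts, which are often used as a feeder layer under ES cells, did not move as a block. Of 12 tested marker loci 4 were called higher and 3 lower, where 7.18% and 18.9% of all loci were. The marker sums ranged from 5575 CPM in Ezh2-/- and 6772 in Jarid2-/- to 8967 in wild-type and 15983 in Eed-/-. The Eed-/- sum was mostly miR-21a-5p, at 5642 CPM in Jarid2-/- and 15222 in Eed-/- cells. The fibroblast markers miR-199a-3p and miR-199b-3p, which have the same sequence, were higher in Jarid2-/- at 157 and 41.5 CPM. Since miR-199a-3p is counted at more than 1 locus, this 1 sequence gave most of the higher marker loci. miR-143-3p was lower at 5.54 and 49.9 CPM. The part of other cells in the results above was not tested.

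For blood cells, miR-142-5p had the highest ratio of all, at 39.2 CPM in Jarid2-/-, 2.44 in Eed-/-, 212 in wild-type and 134 in Ezh2-/- cells, 16.1-fold higher (12.9 to 20.3). Its other strand miR-142-3p was at 31.8, 2.06, 102 and 84.2 CPM, 15.5-fold higher (12.1 to 19.9). Both strands of this marker of blood cells were therefore lowest in Eed-/-. miR-150-5p, a lymphocyte microRNA, had another order, at 2769, 4595, 5527 and 9074 CPM, and the marker list of blood cells summed to 2869 CPM in Jarid2-/- and 4627 in Eed-/-. The liver marker miR-122 was nearly absent, with sums from 0.118 to 0.615 CPM over the 4 columns.

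The endothelial marker miR-126a-3p was at 25.6 CPM in Jarid2-/-, 494 in Eed-/-, 97.3 in wild-type and 319 in Ezh2-/- cells, 19.3-fold lower (16.9 to 22.2), while its 5p strand was even at 299 and 311 CPM. miR-22-3p, a broadly expressed microRNA, was at 9.90, 351, 500 and 329 CPM, 35.4-fold lower (28.6 to 44.4), with its 5p strand at 20.6 and 36.5 CPM. miR-210-3p, the main microRNA of the response to low oxygen, was at 82.5, 554, 3317 and 336 CPM, 6.72-fold lower (6.23 to 7.25), and its 5p strand was at 46.9 and 35.4 CPM. In all 3 hairpins 1 strand carried the difference.

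This held more widely. Both strands of a hairpin come from 1 transcript, and 294 hairpin loci had at least 50 counts for each strand in 1 of the columns. The ratios of the 2 strands differed by a median of 0.65 on the log2 scale, by under 1 in 187 hairpin loci and by at least 2 in 35. Both strands were called lower in 30 and both higher in 11. However, 1 strand alone was called in 94, and the strands were called in opposite directions in 6. A repeated name is counted here at each of its loci, so the 94 include the 10 loci of miR-467a. The 6 are loci of miR-124, miR-103 and miR-200c alone. Under other scalings miR-124-5p and miR-103-3p lost the 2-fold call.

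Strand shares show which column stood apart. The 5p strand made up 92.1% of miR-124 counts in Jarid2-/- and 7.94%, 6.66% and 11.4% in Eed-/-, wild-type and Ezh2-/- cells, at the locus with the widest gap. For miR-22 the shares were 67.6%, 9.43%, 6.38% and 7.35%, and for miR-31 49.3%, 92.95%, 88.8% and 91.9%. In these the Jarid2-/- column was alone. For miR-93 they were 57.7%, 96.1%, 55.4% and 43.8%, with the Eed-/- column alone, and for miR-126a 92.1%, 38.7%, 77.6% and 55.1%, where all 4 differed. Of the 31 hairpin names with a gap of at least 2, the strand ratio farthest from the median of the other columns was that of Jarid2-/- in 20, Eed-/- in 10 and Ezh2-/- in 1.

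**Figure D5:**
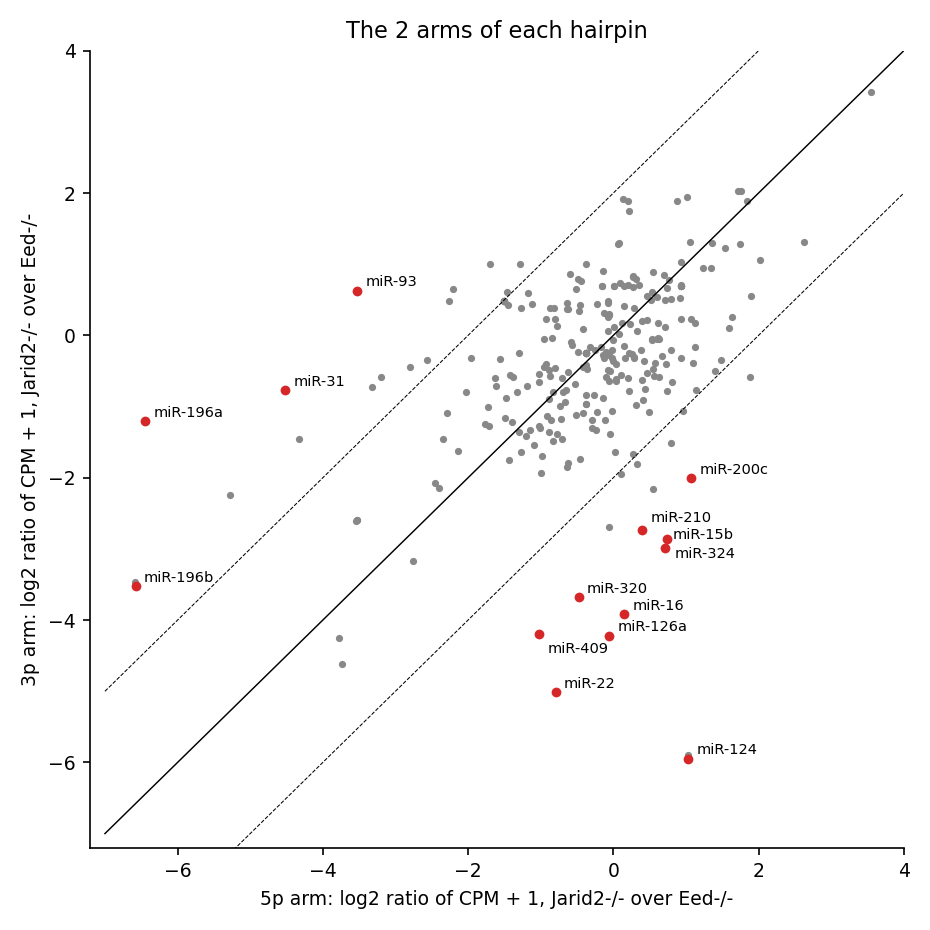
The log2 ratio (Jarid2-/- over Eed-/-, CPM + 1) of the 5p strand (x axis) and the 3p strand (y axis) of the 294 hairpin loci, with the 14 hairpin names that had the widest gap in red. Points on the solid line have equal ratios, dashed lines mark a gap of 2, and miR-124 lies farthest from the line with its 3p strand far lower in Jarid2-/-.

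Among other families, miR-29, which targets collagens and DNA methyltransferases, had 4 of 8 tested loci called lower, with miR-29b-3p at 562 and 1198 CPM in Jarid2-/- and Eed-/-. miR-221-3p was at 47.3 CPM in Jarid2-/-, 184 in Eed-/-, 221 in wild-type and 3.99 in Ezh2-/- cells, 3.89-fold lower (3.52 to 4.31). The miR-500 and miR-532 cluster had 3 of 10 loci called lower, with miR-188-5p at 85.6 and 263 CPM. Loci called lower made up 50.0% of the miR-29 and 30.0% of the miR-500 and miR-532 loci, beside 18.9% of all loci, in groups of only 8 and 10 loci.

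The main strands of several abundant families were below 2-fold. miR-30 had 3 of 12 loci lower (25%) and 0 higher, with miR-30c-5p at 4579 and 3131 CPM. Of these 3, 2 passed the filter only through Eed-/-. Among the 10 miR-30 loci with at least 10 counts in both columns 1 was lower, beside 159 of 760 such loci in all. miR-34a-5p, a target of p53, was at 4678 and 4929 CPM. In the miR-15/16 clusters miR-16-5p was at 3629 and 3272 CPM and miR-15b-5p at 8007 and 4901 CPM, but 4 of 12 loci were called lower (33.3%) and 1 higher (8.33%). Among the lower loci were the minor strands miR-16-2-3p at 2.12 and 46.1 CPM, miR-15b-3p at 21.2 and 175 CPM and miR-195a-3p at 2.00 and 9.46 CPM. miR-26a-5p was at 2453 and 2031 CPM, and miR-130a-3p at 12183 and 16266 CPM.

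Outside the groups, 467 loci were tested, with 35 called higher (7.49%) and 47 lower (10.1%), beside 7.18% and 18.9% of all loci. miR-103-3p was at 24649 CPM in Jarid2-/-, 12247 in Eed-/-, 17721 in wild-type and 7554 in Ezh2-/- cells, 2.01-fold higher (2.00 to 2.02). Its log2 ratio of 1.01 fell under the 2-fold call, to 0.79 with the authors' RPM denominators and 0.84 with totals outside the miR-290 and Gtl2-Rian-Mirg clusters. miR-107-3p differs from it by G22C, and with each name counted once their seed GCAGCAU took 5.92% and 2.91% of counts. miR-1190 was at 16.03 CPM and 0.993 CPM, 16.1-fold higher (11.3 to 23.4) on 136 and 42 counts, with 20.3 in wild-type and none in Ezh2-/-. Picked out after its values were seen, the miR-378 family, which lies partly in a metabolic coactivator gene, had all 5 tested loci called higher, with sums of 2958 and 1174 CPM.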

How the data were processed

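The data analysed were 4 microRNA tables of CJ7 ES cells, 1 per genotype. Per the labels' protocols, RNA of 18 to 40 nt was selected on a gel and sequenced with SOLiD small RNA libraries. Cutadapt, Bowtie and the build mm9 are named in the submitters' processing notes, with no versions. How reads with several matches were handled is not given in the sources used here. Per the file headers, the deposited tables list a read count and a reads-per-million (RPM) value for every mature locus of miRBase release 20. The RPM values deposited by the authors divide by 62259756 reads for Jarid2-/- and 267248746 for Eed-/-, of which 13.6% and 15.8% were microRNA counts. Columns were assigned by name: the Jarid2-/- column carries the older name Jumonji, and the wild-type column names only the CJ7 line. Rows were matched by genomic position (chromosome, start, stop and strand), with no locus left unmatched.

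Counts were divided by the column's microRNA total, and log2 ratios used a pseudocount of 1 CPM. Folds were taken without pseudocount, and their 95% intervals are exact conditional binomial ones, computed in Python 3.11.15 with scipy 1.17.1. A fold printed as lower is the Eed-/- level over the Jarid2-/- level. With 1 column per genotype no test was made. The procedure was tested on simulated counts. Of 53 names with several loci and at least 100 counts, 46 in Jarid2-/- and 48 in Eed-/- had counts within 5% of each other across loci, so values of repeated and near-identical microRNAs are uncertain.

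The 30 microRNA groups, the comparison and the rule for named microRNAs were chosen with earlier results of these data known. Each name had 1 value, that of its locus with most counts. Named were the 12 highest and 12 lowest ratios among names reaching 100 counts in either column. The 3 most abundant members of a group (in the Gtl2-Rian-Mirg cluster 8), the 10 most abundant names and the 6 hairpins with the widest gap between strands were added. Abundance was ranked by the mean CPM of both columns. Other names in the text were chosen after their values were seen. Alternatives were TMM factors (edgeR 4.0.16), median-ratio factors (DESeq2 1.42.0), the RPM denominators, totals outside the miR-290 and Gtl2-Rian-Mirg clusters, filters of 1 and 100 counts, pseudocounts of 0.1 and 10 CPM, sums per hairpin, 1 value per name, multi-copy names left out, and the Eed-/- column thinned to the Jarid2-/- total. Coordinates are those of the deposited tables, 1-based, read as mm9. Exon and intron annotation, chromatin and messenger RNA were not used here.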

Additional observations from a re-analysis of the deposited data

How the results depend on the processing

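No paired analysis was possible because each genotype has 1 column, and for the same reason no replicate could be left out. The 77 higher and 203 lower loci became 118 and 309 with a pseudocount of 0.1 CPM, and 48 and 107 with 10 CPM. Sums per hairpin name gave 43 and 114, and leaving out multi-copy names 36 and 110, both on fewer features (617 and 608 tested). The median of the Gtl2-Rian-Mirg cluster, -0.79, was -0.98 with the RPM denominators, -1.04 with a pseudocount of 0.1 CPM and -0.37 with 10 CPM, and below 0 under each of the 12 alternatives. Other scalings moved the median of all loci from -0.21 to between -0.33 (RPM denominators) and -0.15 (TMM factors), and gave 55 higher and 242 lower loci with the RPM denominators and 91 and 184 with TMM factors. Under these scalings 24 of 29 group medians kept their sign. Those of the miR-290, miR-30, miR-34, miR-15/16 and fibroblast groups did not. Each of the 53 named microRNAs called in the text's rule kept its sign in each alternative that held it. A pseudocount or filter cannot turn the sign of a ratio, and the scalings moved ratios by less than 2-fold. The kept signs of called microRNAs are therefore no separate support. Of the 53, 48 to 53 stayed past 2-fold where all were present. Under other scalings, miR-293-3p, miR-29b-3p, miR-103-3p and miR-124-5p lost the 2-fold call. Depth limits the low loci: 10 counts correspond to 1.18 CPM in Jarid2-/- and 0.236 CPM in Eed-/-, and intervals of counting error do not include the spread between cultures.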

Other observations

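Chromosome 12 had the lowest median ratio of the chromosomes, -0.69 with 40 of 125 tested loci called lower and 2 higher, and its tested loci include the 101 of the Gtl2-Rian-Mirg cluster. The X chromosome followed at -0.58. Of 958 names 18.7% were lower and 7.20% higher, and by first base the lower share ran from 14.8% (C) to 22.02% (G). By length of the mature strand, 23.9% of the 497 names of 22 nt were lower, beside 14.5% of the 193 of 21 nt, 12.1% of the 223 longer and 11.1% of the 45 shorter ones. Of 174 names with at least 60% G and C, 1.72% were higher and 13.8% lower.

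Outside the groups, and picked after its values were seen, the miR-344 array on chromosome 7 had 3 of 7 tested loci called higher and 0 lower. Over all loci the shares were 7.18% and 18.9%. Of the 7 ratios 3 were below 0, and of the 25 loci of the array 14 had no Jarid2-/- count. The sums were 112 CPM in Jarid2-/-, 37.5 in Eed-/-, 43.3 in wild-type and 16.5 in Ezh2-/- cells. miR-320-3p, which is made without Drosha, was at 44.2 CPM in Jarid2-/- and 579 in Eed-/- cells, beside 544 in wild-type and 517 in Ezh2-/-, so the Jarid2-/- column alone was low. miR-324-3p was at 10.7 CPM in Jarid2-/- and 84.3 in Eed-/-, beside 8.32 in wild-type and 10.2 in Ezh2-/-, so there the Eed-/- column alone was high. miR-5099 was at 2358 CPM in Jarid2-/- and 995 in Eed-/-, above 165 in wild-type and 109 in Ezh2-/- in both.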
